A study of Mus musculus with 24 samples.

Results

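The nuclear genes for subunits of the mitochondrial respiratory complexes II to V were followed in ventricle and cortex of mice with and without a working Tatdn1 gene. Genes were taken by their symbols: Sdha to Sdhd for complex II, Cyc1 and every symbol that starts with Uqcr for complex III, Cycs for cytochrome c, every symbol that starts with Cox4i, Cox5, Cox6, Cox7 or Cox8 for complex IV, and every symbol that starts with Atp5 for complex V. This gave 49 genes, each measured by 1 probe set, out of 19505 genes with a single symbol and 22206 gene-level probe sets in all. Complex II has 4 of these genes, complex III 9, cytochrome c 1, complex IV 18 and complex V 17. The rule also takes in Cox7a2l, whose product is known as a factor that joins complexes III and IV rather than as a subunit of complex IV. The rule uses symbols alone and no measured value, but the set was chosen with earlier results of these data known.

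RNA from both tissues of 12 mice aged 2 months was hybridised to Mouse Clariom S HT arrays, 1 array per tissue and mouse (24 arrays). The mice were 6 wild type animals (labelled tatd+/+, here Tatdn1+/+) and 6 knockout animals (labelled tatd-/-, here Tatdn1-/-), and each genotype was made up of 3 males and 3 females. In the knockout line, exon 3 of Tatdn1 had been flanked by loxP sites and deleted throughout the body with Cre under the CAG promoter, and both the Neomycin cassette and the Cre transgene had been removed by breeding. The heart and the cortex array of a mouse share its code, so the tissues come from the same animals. All Tatdn1+/+ mice carry codes that begin with 75 or 76 and all Tatdn1-/- mice codes that begin with 77 or 78, so anything these numbers mark cannot be told apart from genotype. Values are log2 expression values as deposited, so a difference of 1 is a doubling, and because probe sets differ in how brightly they bind, only differences between arrays for the same gene are given.

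The respiratory chain passes electrons from NADH and succinate to oxygen through complexes I to IV of the inner mitochondrial membrane, and complex V, the ATP synthase, uses the proton gradient that this builds to make ATP. Complex II (succinate dehydrogenase) also belongs to the citric acid cycle, complex III hands electrons to the small soluble protein cytochrome c, and complex IV (cytochrome c oxidase) gives them to oxygen. The heart is packed with mitochondria, and for some subunits of complex IV mammals have a gene used in heart and skeletal muscle beside a gene used in most other tissues.

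The tissue markers followed the labels. The mean of 10 cardiomyocyte markers was 10.6 to 10.9 on the ventricle arrays and 2.56 to 2.99 on the cortex arrays, and that of 10 neuron markers was 9.54 to 9.69 in cortex and 3.08 to 4.66 in ventricle. Tatdn1 itself ran from 6.53 to 7.15 in Tatdn1+/+ ventricle and from 4.97 to 6.03 in Tatdn1-/- ventricle, with no overlap, and from 5.29 to 6.15 against 4.44 to 5.31 in cortex, where the groups overlapped. Its difference passed in ventricle (-1.36, SE 0.18, adjusted p 0.0156, limma) and not in cortex (-0.78, SE 0.17, adjusted p 0.168), so in cortex the genotype labels are checked less firmly. Whether its probes lie in the deleted exon was not examined here. Of the ventricle arrays, that of Tatdn1-/- female F77-2 stood apart in the mean of 6 atrial markers, at 7.21 against 3.71 to 4.19 on the other 11. In cortex, Tatdn1-/- male M78-1 was the lowest of its group for 18 of the 49 genes and the highest for 10, and over all probe sets it was the lowest for 28.6% and the highest for 33.2%. Its negative control probe sets had a 95th percentile of 4.08, the highest in cortex. Over the 24 arrays this percentile of the 5222 negative controls lay between 3.25 and 4.40. Of the 49 genes, 43 were above it on all 24 arrays. The 6 that were not are Cox4i2, Cox6b2, Cox7a1, Cox7b2, Cox8b and Cox8c.

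In wild type mice, almost the whole set was more abundant in the ventricle than in the cortex. Of 49 genes, 45 were higher in ventricle and 2 lower at an adjusted p under 0.05 (limma, Benjamini-Hochberg over the 22206 probe sets). Over all probe sets, 29.3% were called higher in ventricle and 26.3% lower. The 6 ventricle values did not overlap the 6 cortex values for 46 of the genes, where 39.2% of all probe sets showed no overlap. The median log2 difference was 1.95 over the 49 genes and 0.093 over all probe sets. The genes differed widely among themselves. Of those above the negative controls in both tissues, Cox6a1 was the lowest at -1.60 and Cox6a2 the highest at 5.95, while Cox7a1 and Cox8b, at the level of the controls in cortex, differed by at least 7.14 and 6.31. When every array was centred on its own median, the median difference moved to 2.36 over the 49 genes and to 0.503 over all probe sets, and the share of called probe sets that were higher in ventricle went from 52.7% to 75.7%. In whole tissue, more cells rich in a transcript and more of that transcript per cell cannot be told apart.

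**Figure D1:**
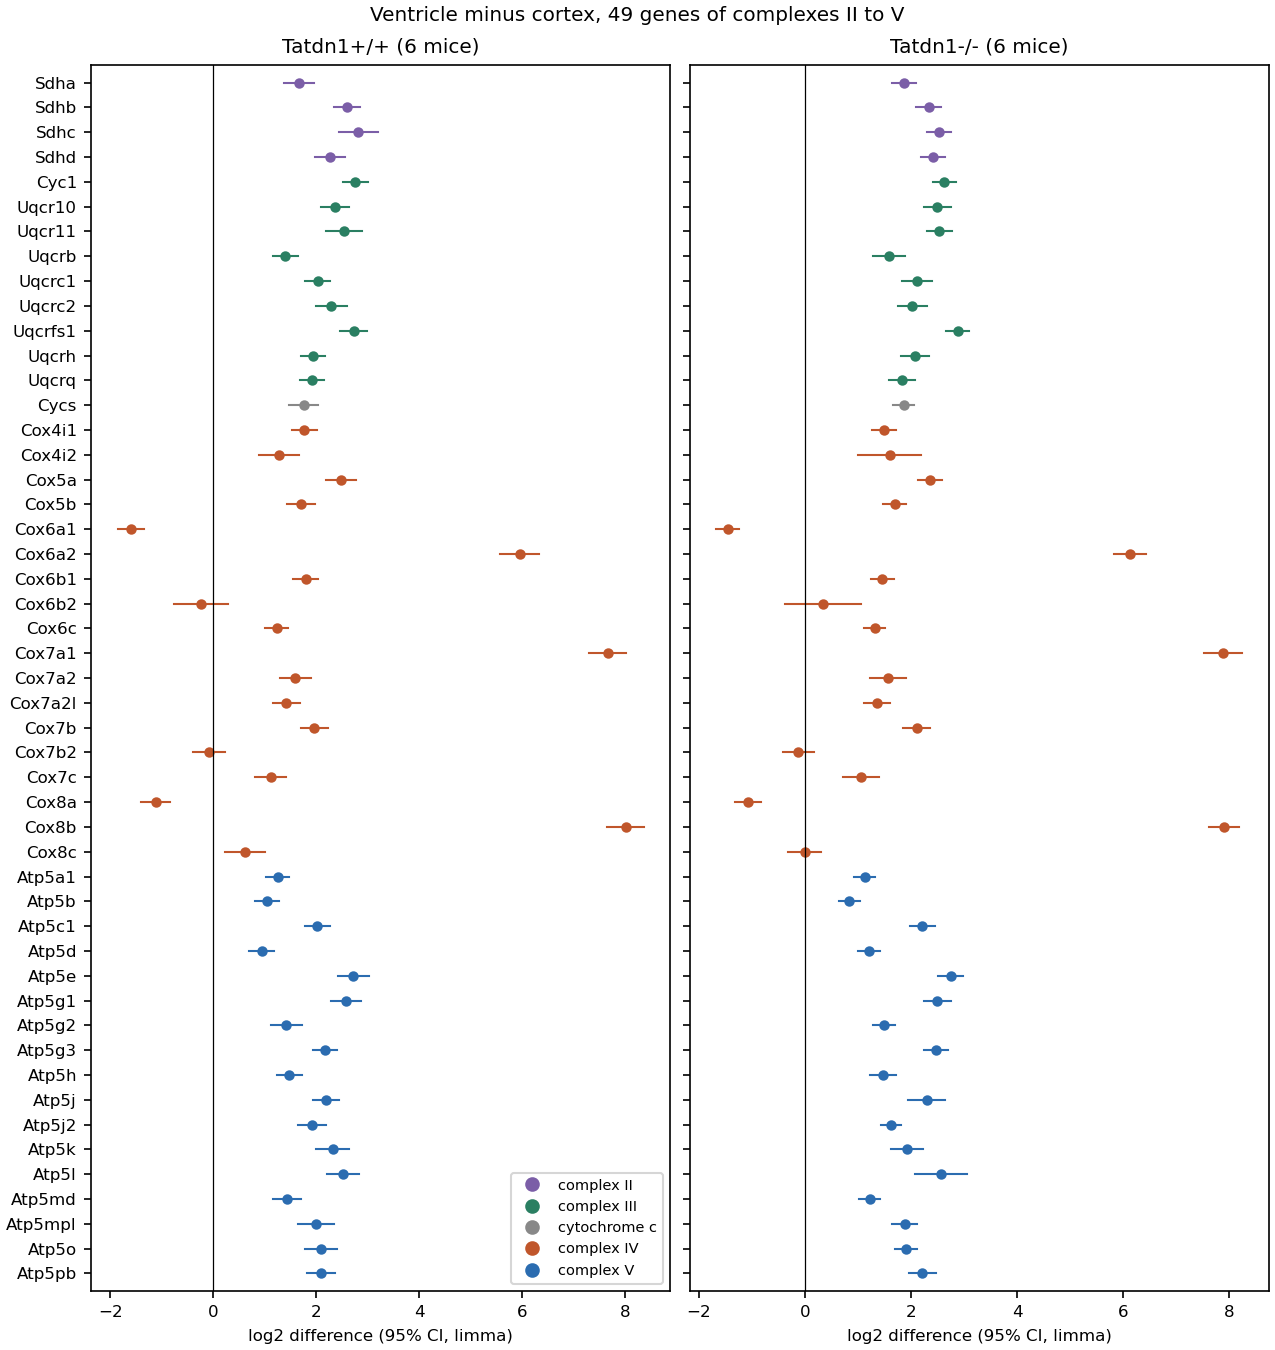
Log2 difference of ventricle minus cortex for each of the 49 genes (points, coloured by complex) with its 95% confidence interval from limma (lines), in Tatdn1+/+ mice on the left and Tatdn1-/- mice on the right, 6 mice each. Most genes sit between 1 and 3 in both genotypes, Cox6a2, Cox7a1 and Cox8b lie far to the right, at fitted differences of 5.95 to 8.01 in Tatdn1+/+ mice (those of Cox7a1 and Cox8b rest on cortex values at the level of the controls), and Cox6a1 and Cox8a lie left of 0.

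All 4 genes of complex II were higher in ventricle, with a median difference of 2.44. Sdha, the flavoprotein that oxidises succinate, ran from 7.07 to 7.69 in cortex (median 7.22) and from 8.67 to 9.12 in ventricle (median 9.07). Every ventricle value was above every cortex value, and the difference of 1.67 (SE 0.14) was the smallest of the complex. Sdhb, the iron-sulfur subunit, differed by 2.60 (SE 0.12). Sdhc, which helps to anchor the complex in the membrane, ran from 4.99 to 6.09 in cortex (median 5.97) and from 8.28 to 8.92 in ventricle (median 8.63), and at 2.82 (SE 0.18) it had the largest difference. The adjusted p-values of the 4 genes from limma were at most 5.3e-09.

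All 9 genes of complex III were higher in ventricle as well, with a median difference of 2.29 and a range from 1.40 to 2.76. Cyc1, the cytochrome c1 that passes electrons to cytochrome c, ran from 5.95 to 6.33 in cortex (median 6.08) and from 8.75 to 9.01 in ventricle (median 8.86). Its difference of 2.76 (SE 0.12) was the largest of the complex, followed closely by 2.73 (SE 0.12) for Uqcrfs1, the Rieske iron-sulfur protein. The standard errors of these differences overlap, so their order is not settled. Uqcrb, a small subunit next to the ubiquinone site, had the smallest difference, 1.40 (SE 0.12), with cortex values of 9.33 to 9.71 (median 9.41) and ventricle values of 10.7 to 11.0 (median 10.9). Cycs, the cytochrome c expressed in somatic tissues, ran from 8.67 to 9.28 in cortex (median 8.91) and from 10.6 to 10.9 in ventricle (median 10.7), a difference of 1.76 (SE 0.13) without overlap.

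All 17 genes of complex V were higher in ventricle, with a median difference of 2.03 and a range from 0.94 to 2.73. Within the catalytic F1 head the genes were spread over the whole of that range. Atp5d, for the delta subunit, ran from 9.32 to 9.58 in cortex (median 9.46) and from 10.1 to 10.6 in ventricle (median 10.4), a difference of 0.94 (SE 0.12). Atp5b and Atp5a1, for the catalytic beta subunit and its partner alpha, differed by 1.05 (SE 0.11) and 1.25 (SE 0.11). Atp5c1, for the gamma subunit of the rotor shaft, differed by 2.03 (SE 0.12). Atp5e, for the epsilon subunit, ran from 4.67 to 5.44 in cortex (median 4.94) and from 7.48 to 7.91 in ventricle (median 7.74), and its difference of 2.73 (SE 0.14) was the largest of complex V. Among these F1 genes the smaller differences were those of the brighter probe sets. The Tatdn1+/+ cortex means were 9.46 for Atp5d, 10.3 for Atp5b and 10.4 for Atp5a1, against 8.18 for Atp5c1 and 4.98 for Atp5e. Whether brightness bears on the size of the differences was not tested. Every ventricle value of each of the 17 genes was above every cortex value.

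Subunit c, which forms the membrane ring of complex V, is encoded by 3 genes whose mature proteins are the same. All of these genes were higher in ventricle, by different amounts. Atp5g1 ran from 8.23 to 8.81 in cortex and from 10.9 to 11.3 in ventricle, a difference of 2.58 (SE 0.13). Atp5g3 differed by 2.17 (SE 0.11). Atp5g2 ran from 7.95 to 8.85 in cortex and from 9.57 to 9.99 in ventricle, and its difference of 1.42 (SE 0.14) was the smallest of the family. The 95% confidence intervals of Atp5g1, from 2.30 to 2.86, and Atp5g2, from 1.11 to 1.72, do not overlap. The values of Atp5g3 lie between them, and its interval, from 1.94 to 2.40, overlaps that of Atp5g1.

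Complex IV was the only complex with genes in both directions: of its 18 genes, 14 were higher in ventricle, 2 were lower and 2 did not pass the threshold. Its median difference, 1.51, was below that of the other complexes. The subunits without a tissue form were all higher in ventricle, as Cox5a (2.48, SE 0.14), Cox5b (1.71, SE 0.13), Cox6c (1.23, SE 0.11) and Cox7c (1.11, SE 0.15) show. The rest of the spread lay in the genes that come as isoforms.

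Subunits 6a, 7a and 8 each have a heart and muscle gene (Cox6a2, Cox7a1, Cox8b) beside a widely expressed gene (Cox6a1, Cox7a2, Cox8a). The promoters of those that RefSeq's table for GRCm38.p6 covers are printed here, because these genes differed in opposite directions, or by very different amounts, between the same tissues. Each line runs 5′ to 3′ over 250 bases before and 50 after the start that the table uses. For Cox7a2 this start lies 11569 bases inside the gene as RefSeq annotates it (chr9:79755241-79771422), and for the other 4 genes it is the annotated 5′ end of the gene. Capitals mark matches, on either strand, to any of 5 motifs. These are an NRF1 motif, CCGGAAG (ETS factors such as GABPA), a loose MEF2 pattern, CAGCTG (an E-box) and TATAAA. The matches to the NRF1 motif are the first pair of runs of capitals in Cox6a1. The MEF2 pattern allows any base in its middle, and none of the windows printed here holds it.
Cox8b (chr7:140900397-140900696, minus strand): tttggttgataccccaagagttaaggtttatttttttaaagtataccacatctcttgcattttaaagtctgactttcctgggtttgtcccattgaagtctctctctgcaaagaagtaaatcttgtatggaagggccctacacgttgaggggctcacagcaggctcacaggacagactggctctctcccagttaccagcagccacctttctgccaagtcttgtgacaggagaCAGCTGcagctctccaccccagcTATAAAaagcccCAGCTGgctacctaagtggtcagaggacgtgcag
Cox8a (chr19:7217567-7217866, minus strand): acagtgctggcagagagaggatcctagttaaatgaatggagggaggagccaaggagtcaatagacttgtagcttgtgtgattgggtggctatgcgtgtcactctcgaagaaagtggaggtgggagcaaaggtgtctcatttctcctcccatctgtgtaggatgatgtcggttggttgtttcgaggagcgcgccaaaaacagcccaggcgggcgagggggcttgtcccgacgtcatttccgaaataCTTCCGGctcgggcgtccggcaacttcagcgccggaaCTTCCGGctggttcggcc
Cox7a1 (chr7:30183921-30184220, plus strand): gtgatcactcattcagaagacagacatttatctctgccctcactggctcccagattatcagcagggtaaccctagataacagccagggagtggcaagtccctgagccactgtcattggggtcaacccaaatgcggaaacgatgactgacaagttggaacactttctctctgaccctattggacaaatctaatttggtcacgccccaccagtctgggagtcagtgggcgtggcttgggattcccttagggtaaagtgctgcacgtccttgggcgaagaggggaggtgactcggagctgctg
Cox7a2 (chr9:79759804-79760103, minus strand): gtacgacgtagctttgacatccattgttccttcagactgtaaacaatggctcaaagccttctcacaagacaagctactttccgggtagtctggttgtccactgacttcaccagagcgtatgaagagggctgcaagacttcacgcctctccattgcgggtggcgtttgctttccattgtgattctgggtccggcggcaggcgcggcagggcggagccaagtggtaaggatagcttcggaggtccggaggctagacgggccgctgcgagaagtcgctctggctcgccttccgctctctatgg
Cox6a1 (chr5:115348909-115349208, minus strand): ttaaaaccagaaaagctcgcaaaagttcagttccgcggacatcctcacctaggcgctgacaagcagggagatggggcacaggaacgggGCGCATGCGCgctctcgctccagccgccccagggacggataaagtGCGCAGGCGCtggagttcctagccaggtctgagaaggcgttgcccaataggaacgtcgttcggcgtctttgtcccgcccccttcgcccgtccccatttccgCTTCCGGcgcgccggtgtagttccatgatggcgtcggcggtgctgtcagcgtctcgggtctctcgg

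The window of Cox8b holds CAGCTG 2 times and TATAAA 1 time, that of Cox8a holds CCGGAAG 2 times, and that of Cox6a1 holds the NRF1 motif 2 times and CCGGAAG 1 time, the latter read on the other strand as CTTCCGG in both genes. Neither window of subunit 7a holds any of the 5. Of the 49 genes, 37 have promoters in the table, 40 in all, of which 31 start exactly at the annotated 5′ end of the gene. The NRF1 motif occurs in 10 of these 40 windows (25.0%) and in 4.60% of all 32851 windows, and CCGGAAG in 13 (32.5%) against 8.86%. CAGCTG occurs in 2 (5.0%) against 16.3%, TATAAA in 4 (10.0%) against 13.6%, and the loose MEF2 pattern in 1 (2.5%) against 3.69%. The matches describe the letters of these windows and not where any factor binds.

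Cox8b and Cox7a1 had the largest fitted tissue differences of the set, and which of them differed more is not settled. Cox8b ran from 1.29 to 2.42 in Tatdn1+/+ cortex (median 1.79) and from 9.64 to 9.90 in Tatdn1+/+ ventricle (median 9.75). Cox7a1 ran from 2.17 to 3.26 in cortex (median 3.05) and from 10.3 to 10.8 in ventricle (median 10.6). In cortex both genes lay under the 95th percentile of the negative controls on all 6 arrays, so their cortex level is no more than a bound. The fitted differences were 8.01 (SE 0.17) for Cox8b and 7.66 (SE 0.17) for Cox7a1. With the cortex value of each array raised to that percentile, Cox8b was at least 79.4-fold and Cox7a1 at least 141-fold higher in ventricle. Cox6a2 was measurable in both tissues, from 4.60 to 5.99 in cortex (median 5.36) and from 11.2 to 11.5 in ventricle (median 11.3). Its difference was 5.95 (SE 0.18), or 61.8-fold, with an adjusted p of 2.97e-15 from limma.

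The widely expressed counterparts split. Cox6a1 was lower in ventricle, with values from 8.67 to 8.95 (median 8.80) against 10.3 to 10.7 in cortex (median 10.4), a difference of -1.60 (SE 0.12, adjusted p 1.08e-09, limma). Cox8a was lower too, with ventricle values from 8.82 to 9.09 (median 9.00) and cortex values from 9.75 to 10.4 (median 10.1), a difference of -1.12 (SE 0.13, adjusted p 5.17e-07, limma). These were the 2 genes of the set called lower in ventricle, and no array of one tissue overlapped the other tissue in either. Cox7a2 did not follow them: it ran from 7.50 to 8.04 in cortex (median 7.68) and from 8.99 to 9.65 in ventricle (median 9.26), and was higher in ventricle by 1.60 (SE 0.14).

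**Figure D2:**
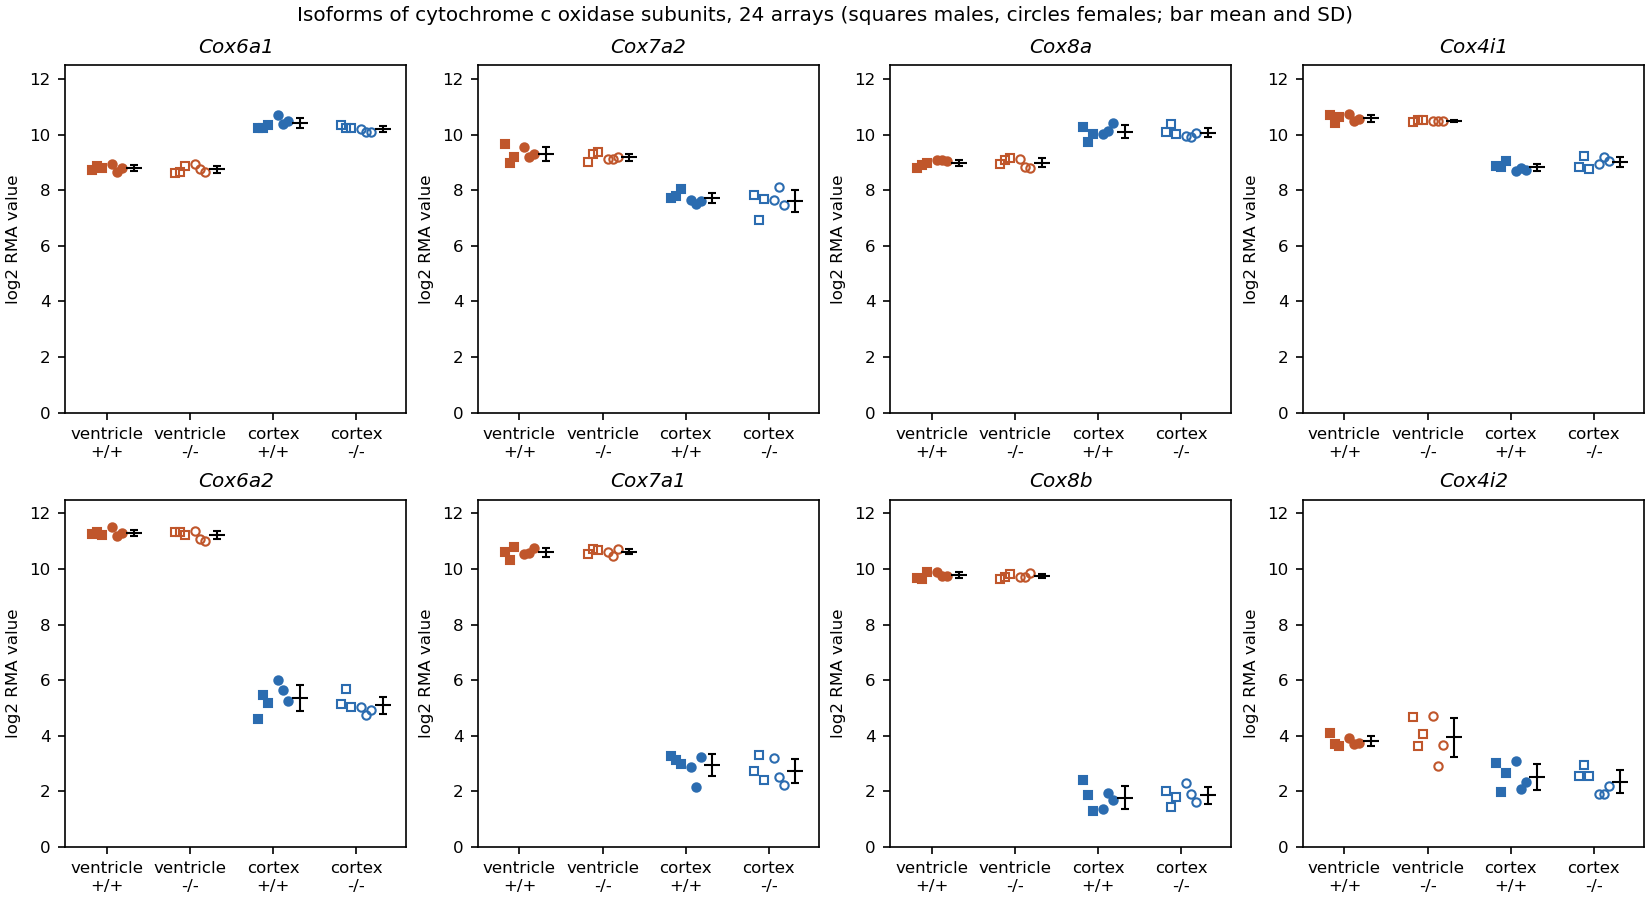
Log2 expression value of 8 complex IV isoform genes on each of the 24 arrays, by tissue and genotype (squares are males, circles females, open symbols Tatdn1-/-), with the mean and SD of 6 mice as a bar. The upper row holds the widely expressed genes and the lower row their counterparts. Cox6a2, Cox7a1 and Cox8b drop from over 9 in ventricle to under 6 in cortex, Cox6a1 and Cox8a are higher in cortex, and the genotypes overlap in every panel.

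Set against each other on the same array, the heart gene moved relative to its counterpart by 7.55 for Cox6a2 minus Cox6a1 from cortex to ventricle in Tatdn1+/+ mice and by 7.59 in Tatdn1-/- mice. For the other pairs only a bound can be given, with the cortex value of the heart gene raised to the control percentile. It was at least 5.54 and 5.59 for Cox7a1 minus Cox7a2, and at least 7.43 and 7.36 for Cox8b minus Cox8a. The spread of the subunit 6a difference over Tatdn1+/+ mice was wider in cortex (SD 0.371) than in ventricle (SD 0.047). Between genotypes the mean of the difference changed by at most 0.157 in ventricle over the 3 pairs and by -0.061 in cortex for subunit 6a, and the genotypes overlapped in each.

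The isoforms of other complex IV subunits showed no such contrast. Cox4i1, for the common form of subunit 4, differed by 1.77 (SE 0.12). Cox4i2, best known as the form of lung and of low oxygen, ran from 1.97 to 3.07 in cortex (median 2.50) and from 3.62 to 4.09 in ventricle (median 3.72). It differed by 1.28 (SE 0.19) in the same direction, but lay under the control percentile on all 6 cortex arrays and above it on 5 of 6 ventricle arrays, so that it was at least 1.26-fold higher in ventricle. Cox6b1 and Cox7b, the common forms of their subunits, differed by 1.80 (SE 0.12) and 1.97 (SE 0.12). Their counterparts Cox6b2 and Cox7b2, and the third gene for subunit 8, Cox8c, are known from testis. Cox7b2 and Cox8c lay under the control percentile on all 24 arrays, and Cox6b2 passed it on 9. The differences of Cox6b2 (-0.24, SE 0.25) and Cox7b2 (-0.08, SE 0.15) did not pass the threshold. Cox8c passed it at 0.61 (SE 0.19, adjusted p 0.00898, limma), on values of 1.30 to 2.28 in cortex (median 2.04) and 2.16 to 3.20 in ventricle (median 2.45) that overlap and are all at the level of the controls.

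The tissue contrast in Tatdn1-/- mice gave nearly the same counts. There, 44 genes were higher in ventricle and 2 lower, again Cox6a1 (-1.45, SE 0.10) and Cox8a (-1.08, SE 0.11). Over all probe sets, 29.8% were called higher and 25.3% lower. The values of the tissues did not overlap for 45 genes, with 40.1% of all probe sets as background. The median difference was 1.88, beside 0.087 over all probe sets. By complex, the medians were 2.38 for complex II, 2.12 for III, 1.47 for IV and 1.91 for V, and Cycs differed by 1.87. Cox8b (7.90, SE 0.13), Cox7a1 (7.89, SE 0.17) and Cox6a2 (6.14, SE 0.14) stood apart as before. Cox8b was at least 78.1-fold and Cox7a1 at least 144-fold higher in ventricle. Cox8c, at -0.003 (SE 0.15), was called in Tatdn1+/+ mice only. The change in its tissue difference did not pass the test of the difference itself (adjusted p 0.415, limma). The 38 nuclear genes of complex I gave a close picture, with 38 higher in ventricle in both genotypes and medians of 2.18 and 2.15, so a higher level in ventricle is not particular to complexes II to V.

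Between genotypes the differences were small and pointed both ways in either tissue. In ventricle, 0 of the 49 genes passed an adjusted p of 0.05 (limma), where 3 of 22206 probe sets (0.0135%) did. The median difference of Tatdn1-/- minus Tatdn1+/+ was 0.001 over the 49 genes and 0.019 over all probe sets, with 26 means higher and 23 lower. Without adjustment, 0 genes were higher and 1 lower at p under 0.05, where 5.08% of all probe sets were higher and 3.37% were lower. The values of the genotypes did not overlap for 1 gene, against 0.59% of all probe sets. The median standard error of a difference was 0.097. These comparisons use the same Tatdn1+/+ and Tatdn1-/- arrays as the tissue contrasts and are not independent of them.

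In cortex, 0 of 49 genes passed the adjusted threshold either, where 2 probe sets (0.00901%) did. The median difference was 0.009, beside -0.017 over all probe sets, with 25 means higher and 24 lower. Without adjustment, 2 genes (Sdhb and Atp5j2) were higher at p under 0.05 and 1 (Uqcrc2) was lower, beside 2.39% and 4.59% of all probe sets. The values did not overlap for 1 gene, against 0.576% of all probe sets. The median standard error was 0.133, wider than in ventricle. No complex moved as a block: the median differences in ventricle and cortex were 0.102 and 0.148 for complex II, -0.035 and -0.075 for III, 0.001 and -0.008 for IV, and 0.021 and 0.047 for V. The median standard error of a gene was 0.117 and 0.125 in complex II and 0.097 and 0.137 in complex III. Cycs differed by -0.043 (SE 0.095) and -0.148 (SE 0.12).

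**Figure D3:**
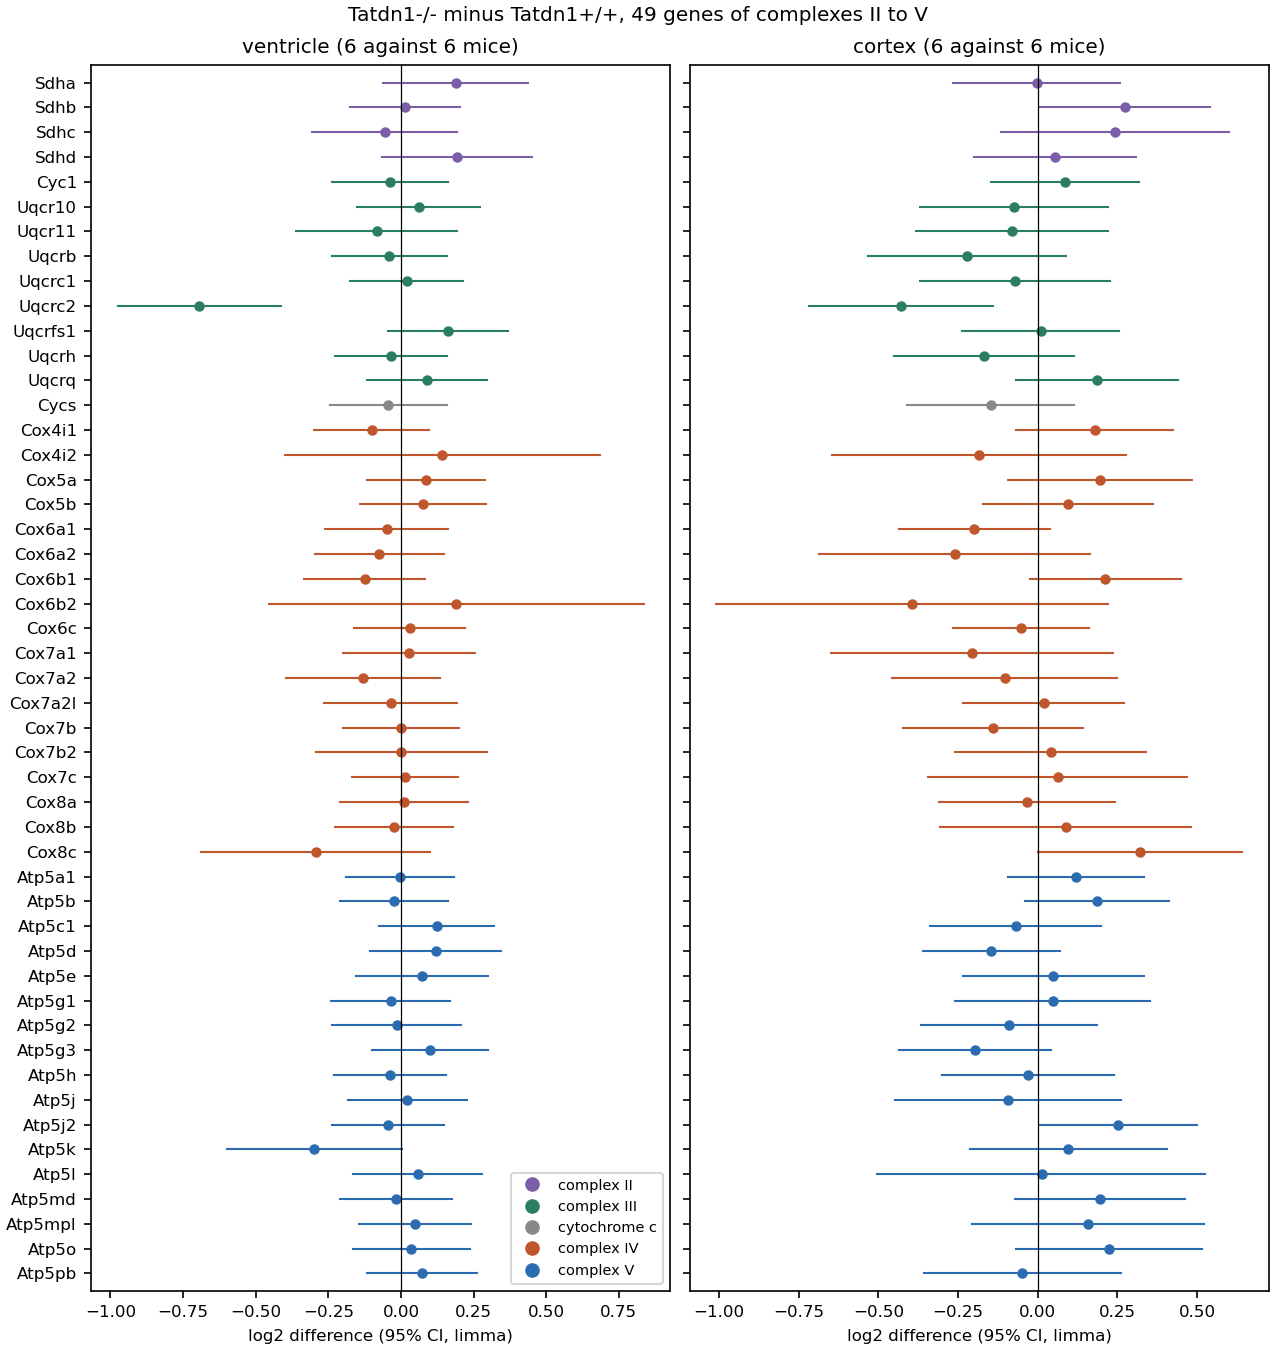
Log2 difference of Tatdn1-/- minus Tatdn1+/+ for each of the 49 genes (points, coloured by complex) with its 95% confidence interval from limma (lines), in ventricle on the left and cortex on the right, 6 against 6 mice. The intervals of nearly all genes include 0, and Uqcrc2, at -0.69 in ventricle and -0.43 in cortex, lies farthest to the left in both tissues.

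Uqcrc2, for core protein 2 of complex III (probe set TC0700001731.mm.2, gene at chr7:120635189-120659523 in GRCm38.p6), had the lowest genotype difference of the 49 genes in each tissue. In ventricle it ran from 7.72 to 8.40 in Tatdn1+/+ mice (median 8.13) and from 7.22 to 7.61 in Tatdn1-/- mice (median 7.45). Every Tatdn1-/- mouse was below every Tatdn1+/+ mouse. The difference was -0.69 (SE 0.13, 95% confidence interval -0.98 to -0.41), and the exact permutation test, two-sided, gave p = 0.00216, the smallest that 6 against 6 mice allow. Adjusted over all probe sets, the limma fit gave an adjusted p of 0.122, which did not pass. Without Tatdn1-/- female F77-2, whose atrial markers were high, the difference was -0.70. It passed in 2 of the 23 alternative settings, at an adjusted p of 0.00421 with a variance trend and robust estimation and of 0.0236 with all 24 arrays in 1 fit. In the other 21 it did not pass.

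In cortex Uqcrc2 ran from 5.44 to 6.02 in Tatdn1+/+ mice (median 5.85) and from 5.10 to 5.81 in Tatdn1-/- mice (median 5.33). Here the groups overlapped: 1 Tatdn1+/+ array lay low, and 1 Tatdn1-/- array, at 5.81, lay among the wild type values. The difference was -0.43 (SE 0.14, 95% confidence interval -0.72 to -0.14), the exact permutation p was 0.0152 (two-sided) and the adjusted p from limma 0.475. Without Tatdn1-/- male M78-1 it was -0.41. The ventricle and cortex differences did not differ from each other beyond their error (-0.27, SE 0.19). In ventricle the difference was -0.75 in males and -0.64 in females, and in cortex -0.36 and -0.50, and the difference between the sexes did not pass in either tissue (unadjusted p 0.69 and 0.636 from the limma fit across all probe sets). The other core protein, Uqcrc1, sat at 10.3 to 10.5 in both genotypes in ventricle. The mean of 5 fibroblast markers was higher on average in Tatdn1-/- ventricle, from 6.52 to 7.17 against 6.15 to 6.73. All 5 of 5 markers were higher on average, as were 12013 of 22206 over all probe sets. Of other lists, 6 of 6 atrial and 4 of 5 endothelial markers were higher, against 4 of 10 cardiomyocyte and 1 of 4 smooth muscle markers. The atrial count rests on F77-2, at a list mean of 7.21. The group medians of that list were 3.975 in Tatdn1-/- and 4.13 in Tatdn1+/+ ventricle. Higher too were 7 of 10 neuron, 5 of 6 astrocyte, 5 of 6 striatum and 4 of 6 skeletal muscle markers. For microglia or macrophages it was 3 of 6, and for oligodendrocytes and brown fat 2 of 5 each. The part of these cell types in the ventricle difference of Uqcrc2 was not tested. Among the 26 other genes measured within 1 Mb of Uqcrc2, a window looked at after the values of Uqcrc2 were seen, 0 had an unadjusted p under 0.05 in ventricle, where 8.46% of all probe sets did, and 1 did in cortex (Dcun1d3, -0.50), beside 6.98%. Their ventricle differences ran from -0.30 to 0.41.

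**Figure D4:**
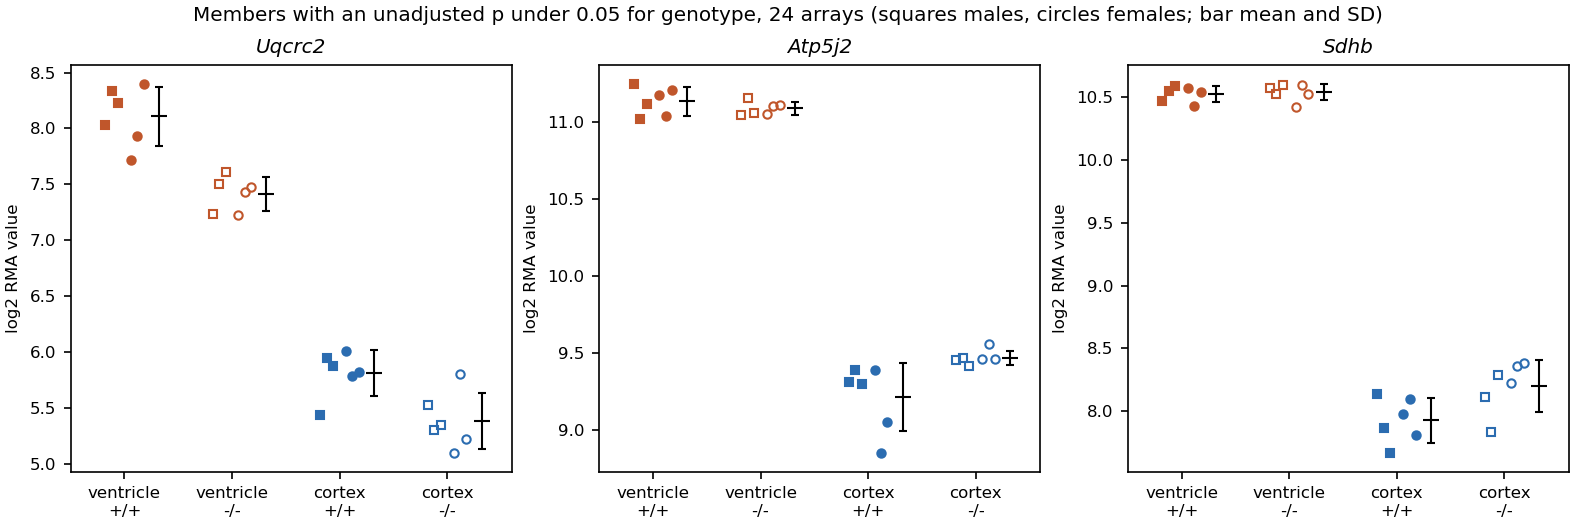
Log2 expression value of Uqcrc2, Atp5j2 and Sdhb on each of the 24 arrays, by tissue and genotype (squares are males, circles females, open symbols Tatdn1-/-), with the mean and SD of 6 mice as a bar; the axes do not start at 0. For Uqcrc2 the ventricle groups, 7.72 to 8.40 and 7.22 to 7.61, do not overlap, and for Atp5j2 the cortex groups do not.

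Atp5j2, for the f subunit in the membrane part of complex V, was the gene without overlap in cortex. It ran from 8.85 to 9.39 in Tatdn1+/+ cortex (median 9.31) and from 9.42 to 9.56 in Tatdn1-/- cortex (median 9.46). The gap between the groups was 0.02, and 2 Tatdn1+/+ females lay well below the other 4 mice of their group. The difference was 0.25 (SE 0.12, exact permutation p = 0.00216, two-sided), with an adjusted p of 0.699 from limma. In ventricle the same gene differed by -0.04, on values of 11.0 to 11.3 and 11.0 to 11.2. Sdhb ran from 7.67 to 8.14 in Tatdn1+/+ cortex (median 7.92) and from 7.83 to 8.38 in Tatdn1-/- cortex (median 8.26), with overlap, a difference of 0.27 (SE 0.13, exact permutation p = 0.0411, adjusted p 0.70, limma). Markers of oligodendrocytes and of striatum were likewise higher on average in Tatdn1-/- cortex, 5 of 5 and 6 of 6, where 10227 of 22206 probe sets were higher. Their list means ran from 7.85 to 8.40 against 7.60 to 8.45, and from 7.97 to 8.37 against 7.44 to 8.38, and their part in the cortex differences was not tested.

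Of the genes that followed Uqcrc2 in ventricle, Atp5k, for the e subunit of complex V, ran from 6.38 to 7.13 in Tatdn1+/+ (median 6.72) and from 6.30 to 6.61 in Tatdn1-/- mice (median 6.42), a difference of -0.30 (SE 0.14, adjusted p 0.593, limma). The largest positive differences in ventricle were 0.19 for Sdhd, Cox6b2 and Sdha, with standard errors of 0.12, 0.30 and 0.12. Uqcrfs1 (0.16, SE 0.10) and Atp5c1 (0.12, SE 0.09) lay below them. In cortex Cox8c reached 0.32 (SE 0.15) on values at the level of the controls, Sdhc 0.24 (SE 0.17) and Cox6b1 0.21 (SE 0.11), while Cox6b2 was at -0.39 (SE 0.29). None of these passed an unadjusted p of 0.05. Over both tissues, Cox6b2 was above the control percentile on only 9 of the 24 arrays.

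Whether genotype acted differently in the tissues was tested over all 24 arrays, as the genotype difference in ventricle minus that in cortex. Of the 49 genes, 0 passed the adjusted threshold, with 0.0135% of all probe sets as background, and 4 had an unadjusted p under 0.05, against 9.54% of all probe sets. These were Cox8c (-0.62, SE 0.25), Cox6b1 (-0.34, SE 0.14), Atp5j2 (-0.30, SE 0.14) and Atp5g3 (0.30, SE 0.14). Of these, Cox8c lay under the control percentile on all 24 arrays. The median over the 49 genes was -0.003 and the median standard error 0.166. The interactions of the heart and muscle isoforms were 0.19 (SE 0.24) for Cox6a2, 0.23 (SE 0.25) for Cox7a1 and -0.11 (SE 0.22) for Cox8b, with 95% confidence intervals from -0.30 to 0.67, from -0.27 to 0.74 and from -0.56 to 0.33. Those of Cox7a1 and Cox8b rest on cortex values at the level of the controls.

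Sex was compared within each tissue, as the genotype difference in males minus that in females. In Tatdn1+/+ mice the codes of all males begin with the same number, and those of all females with a different number. Anything these numbers mark therefore cannot be told apart from sex in this comparison. In both tissues 0 of the 49 genes and 0% of all probe sets passed the adjusted threshold (limma). In ventricle 0 genes had an unadjusted p under 0.05, against 5.27% of all probe sets. In cortex 3 had, against 3.86%: Cox6a2 (0.91, SE 0.35), Atp5c1 (-0.56, SE 0.23) and Atp5h (0.59, SE 0.22), each with an adjusted p of 0.995 from limma.

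Genes that build or serve these complexes were read alongside them. For assembly of complex IV, 20 genes were measured, 18 of them higher in ventricle than in cortex in Tatdn1+/+ mice (median difference 1.07) and 0 lower, beside the 29.3% and 26.3% of all probe sets. Between genotypes 0 passed the adjusted threshold in either tissue. In ventricle 16 of 20 means were higher in Tatdn1-/- mice, as were 12013 of 22206 over all probe sets. Of the higher ones, 3 had an unadjusted p under 0.05, where 5.08% of all probe sets did: Cox11, a copper chaperone for subunit 1 (0.44, SE 0.14), Coa3 (0.26, SE 0.12) and Taco1, which promotes translation of subunit 1 (0.23, SE 0.11). In cortex 6 of 20 were higher, against 10227 of 22206, and 3 lower ones had an unadjusted p under 0.05, where 4.59% of all probe sets did: Cmc2 (-0.37, SE 0.12), Cox14 (-0.38, SE 0.15) and Coa3 (-0.28, SE 0.12). The median was 0.078 in ventricle and -0.099 in cortex, and of the tests of the difference between tissues 0 passed the adjusted threshold, with Coa3 at 0.54 (adjusted p 0.279, limma).

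The other assembly lists were shorter, and their counts stand against the same 29.3% of all probe sets higher in ventricle. Of 4 genes for complex II assembly, 3 were higher in ventricle in Tatdn1+/+ mice, and Sdhaf2, which helps to insert the flavin into Sdha, differed between genotypes by -0.39 (SE 0.15, adjusted p 0.60, limma) in cortex. Of 6 for complex III, 5 were higher in ventricle, and Lyrm7, which helps to mature Uqcrfs1, differed by 0.25 (SE 0.11, adjusted p 0.688, limma) in cortex. Of 5 for assembly and inhibition of complex V, 4 were higher in ventricle. The exception was Atpif1, the inhibitor that stops complex V from running backwards, which differed between the tissues by -0.11 with an adjusted p of 0.465 (limma).

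Among 9 genes that exchange nucleotides, phosphate and high-energy phosphate with the cytosol, the mitochondrial creatine kinases gave a second isoform contrast. Ckmt2, the muscle form, differed by 8.97 (SE 0.15) and Ckmt1, the form of brain and other tissues, by -5.70 (SE 0.17) between ventricle and cortex in Tatdn1+/+ mice. Even from the highest value on any array, a drop of 8.97 would put Ckmt2 under the mean control percentile of cortex. The cortex level of Ckmt2 is therefore no more than a bound, and its fitted difference rests on it. The adenine nucleotide carriers Slc25a4 (1.22, SE 0.11) and Slc25a5 (0.63, SE 0.15) were both higher in ventricle. In all, 7 of the 9 were higher and 1 lower, beside 29.3% and 26.3% of all probe sets. Between genotypes 0 had an unadjusted p under 0.05, where 8.46% of all probe sets did in ventricle and 6.98% in cortex.

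Of 11 regulators of mitochondrial genes, 8 were higher and 1 lower in ventricle in Tatdn1+/+ mice, again beside 29.3% and 26.3% of all probe sets. Perm1, a muscle regulator, differed by 7.32 (SE 0.15) and Ppara, the receptor that drives fatty acid oxidation genes, by 4.63 (SE 0.19). Whether their cortex values lay above the negative controls was not examined. Esrrg differed by 1.73 (SE 0.14), Gabpa by 1.51 (SE 0.13) and the coactivator Ppargc1a by 1.13 (SE 0.12). Nrf1 did not pass the threshold (0.19, adjusted p 0.226, limma). Between genotypes 0 of 11 passed it. Esrrg had an unadjusted p under 0.05 in cortex (0.32, SE 0.14), and Ppargc1a differed by -0.09 in ventricle and 0.21 in cortex, with adjusted p-values of 0.856 and 0.776 (limma). Of 13 genes that copy and transcribe mitochondrial DNA, 12 were higher in ventricle (29.3% of all probe sets) and 0 were called between genotypes. Those with an unadjusted p under 0.05 were Polg2 (-0.40, SE 0.14) and Mterf2 (0.35, SE 0.16) in ventricle and Ssbp1 (-0.39, SE 0.13) in cortex.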

How the data were processed

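RNA of ventricle and cortex from 12 mice was measured on 24 arrays. The deposited log2 values were made by the authors from the scanner files with RMA (version not given in the sources used here), which corrects background, normalises by quantiles and summarises each probe set. Which arrays were normalised together is not stated. Normalising both tissues together sets their intensity distributions equal, so a tissue difference is relative to the other transcripts of the array. Scanner files were not used here.

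The table has 29129 entries. Tests ran over the 22206 at gene level, and the remaining 6923 were left out. Symbols came from the platform annotation, with places from RefSeq for GRCm38.p6 (49 of 49 genes matched). Probe sequences were not used, so signal from near-identical pseudogenes could not be examined. Groups were compared with limma 3.58.1 in R 4.3.3 (lmFit, eBayes, 6 against 6), adjusted over 22206 probe sets by Benjamini-Hochberg at 0.05. The difference between tissues of the genotype effect was an interaction over 24 arrays. Exact permutation tests were two-sided over 924 splits. The scripts were tested on simulated data.

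Gene names in the text are every isoform gene, the 2 genes of each complex with the smallest p for genotype in each tissue, those at the ends of the tissue contrast, and at most 2 genes per list and tissue, plus Ppargc1a and Esrrg. Uqcrc1, Cox5a, Cox5b, Cox6c, Cox7c, Atp5a1, Atp5b, Coa3, Taco1, Cox14, the exchange genes, Perm1, Ppara, Gabpa, Nrf1 and Dcun1d3 were added by hand with their values known. The genes and lists were chosen with earlier results of these data known. Heart and cortex arrays were paired by the mouse code in the labels. Within mice, heart and cortex deviations from the group mean had correlations between -0.080 and 0.046.

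The alternatives changed the scaling (quantiles within the fit, or the median of each array), the filter (without the 30% dimmest probe sets), the model (a sex term, array weights, variance trend and robust estimation, all 24 arrays at once, the mouse as a block), the test (exact Wilcoxon), how several probe sets of a gene are joined (their mean), or the mice used (1 sex, or all but 1 mouse).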

Additional observations from a re-analysis of the deposited data

Results flagged for a closer look

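In 124 groups of 6 values (31 named genes in 4 groups), the gap between the most extreme value and its neighbour exceeded the 95% critical value of Dixon's test 5 times. Chance flags about 1 in 20 such groups, so for these 31 genes 5 is no more than chance gives. The groups share arrays, so the flags are not independent, and the other members were not screened. All of the 5 are in cortex. In Tatdn1-/- cortex, male M78-1 was lowest for Cyc1 (5.95, next value 6.20) and for Uqcrb (8.59, next value 9.19), and female F77-2 was highest for Atp5j2 (9.56, next value 9.47). In Tatdn1+/+ cortex, female F76-2 was lowest for Cox7a1 (2.17, next value 2.89), a value at the level of the negative controls, and male M75-1 was highest for Uqcrfs1 (7.47, next value 7.09). Among the members not screened, the cortex array of M78-1 was also lowest, and well apart, for several genes. These were Atp5l (5.59, next value 7.02), Atp5j (6.97, next value 7.82), Cox7c (9.84, next value 10.6) and Uqcrh (7.78, next value 8.32). It was highest for Cox5b (8.785, next value 8.471). The cortex array of M78-1 also has the highest negative controls of its tissue, and whether that bears on these genes was not tested.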

How the results depend on the processing

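The 2 counts between tissues, 47 of 49 genes in Tatdn1+/+ and 46 in Tatdn1-/- mice, stayed between 46 and 47 under every alternative run, and with the mouse as a block (47 and 46). In that paired fit Cox8b differed by 8.01 (SE 0.18) and Cox6a2 by 5.95 (SE 0.16) in Tatdn1+/+ mice, and the block changed no call. Between genotypes the ventricle count of 0 became 1 (Uqcrc2) with a variance trend and robust estimation, with all 24 arrays in 1 fit, and at an unadjusted p under 0.05. The cortex count of 0 became 3 and that of the interaction 4 at an unadjusted p under 0.05 only. The Uqcrc2 difference in ventricle ran from -0.77 to -0.64 with each mouse left out in turn, with adjusted p-values from 0.0875 to 0.282.

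Of 82 named values under 1492 alternatives, 1473 kept direction and side of the threshold, 16 changed sign, 1 fell below the threshold (Cox8c between tissues in Tatdn1+/+ females alone, 0.44) and 2 rose past it (Uqcrc2, as above). Those that changed sign were Uqcrq between genotypes in cortex in males alone (-0.024), and genes at the level of the negative controls between tissues. In Tatdn1+/+ mice these were Cox6b2 with quantile normalisation (0.15), centred arrays (0.17) and females alone (0.23), and Cox7b2 with centred arrays (0.33) and with a mouse left out (-0.127 to 0.034). In Tatdn1-/- mice they were Cox7b2 with centred arrays (0.21) and in males alone (0.082), and Cox8c with quantile normalisation (0.079), centred arrays (0.33), array weights (0.026), males alone (0.19) and a mouse left out (-0.093 to 0.062). The cause was not tested.

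The limits are these. With 6 mice a group, the median standard error of a genotype difference was 0.097 in ventricle and 0.133 in cortex, and a p that misses the threshold does not show that the genotypes are alike. Signal at the level of the negative controls bounds the tissue differences of Cox4i2, Cox7a1 and Cox8b. The same limit holds for Ckmt2, for which no bound was computed. Other genes outside the set were not compared with the negative controls. The shift of all probe sets between tissues depends on the scaling, as given beside the tissue counts.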
